A study of Rattus norvegicus with 172 samples.

Results

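The liver carriers that move bile salts, bile lipids and drug or hormone conjugates were followed as 9 genes in rats given furan or 3-methylfuran for 90 days. They are 5 canalicular exporters, Abcb11 (ENSRNOG00000050860), Abcb4 (ENSRNOG00000008012), Abcc2 (ENSRNOG00000046727), Abcg5 (ENSRNOG00000005250) and Abcg8 (ENSRNOG00000005420). The basolateral exporters are Abcc3 (ENSRNOG00000002948) and Abcc4 (ENSRNOG00000010064), and the basolateral uptake carriers are Slc10a1 (ENSRNOG00000005794) and Slco1b2 (ENSRNOG00000030538). They were chosen by symbol, as 9 of the 32883 genes in each count table, and all 9 passed the filter on low counts in both experiments.

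Poly(A) RNA of liver tissue was sequenced from 70 male Fischer F344 rats in 9 groups. In the furan experiment 8 control rats received no furan, and 8, 8, 7 and 7 rats received 0.03, 0.12, 0.5 and 2.0 mg/kg bw/day. In the 3-methylfuran experiment 8 control rats received no 3-methylfuran, and groups of 8 rats received 0.02, 0.075 and 1.0 mg/kg bw/day. The labels describe the controls of both experiments alike, and the doses of the compounds do not match. Furan is a small heterocycle formed in heated food, and 3-methylfuran is the same ring with a methyl group added. The library kit changed together with the compound, so levels were compared only within an experiment and the compounds only through each one's change over its own controls.

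Hepatocytes take up bile salts from portal blood across the basolateral membrane, mainly through NTCP, the product of Slc10a1, and take up organic anions through OATP carriers such as the product of Slco1b2. Across the canalicular membrane they secrete bile salts through BSEP (Abcb11), phosphatidylcholine through the floppase MDR2 (Abcb4), glutathione and glucuronide conjugates through MRP2 (Abcc2), and sterols through a dimer of the half-transporters ABCG5 and ABCG8. MRP3 (Abcc3) and MRP4 (Abcc4) sit in the basolateral membrane and return conjugates and bile salts to the blood, and are known as carriers of low level in healthy liver that rise in cholestasis and under electrophile exposure.

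Sequences at gene starts are shown for the members whose values recur below. RefSeq windows of assembly GRCr8, 250 bases before to 50 bases after the annotated start, were matched for 7 of the 9 genes. Abcg5 and Abcg8 lie head to head on chromosome 6, with Abcg5 on the plus strand and Abcg8 on the minus strand. Their annotated starts stand 205 bases apart, so their windows share 295 of 300 bases, and 1 stretch serves for both (chr6:15717686-15717985, plus strand). In it the capitals mark a match to TGACNNNGC, the core of the antioxidant response element, at bases -28 to -20 from the Abcg5 start. The window of Abcc2, called higher at the top dose of 3-methylfuran and not of furan with TMM, is chr1:252613625-252613924 on the plus strand, with its own match to TGACNNNGC at bases 17 to 25 in capitals. The window of the bile salt uptake gene Slc10a1 is chr6:106357895-106358194 on the minus strand, and the capitals there mark 2 copies of AGGTCA, a half-site of nuclear receptors, at -197 to -192 and -99 to -94.
Abcg5 and Abcg8: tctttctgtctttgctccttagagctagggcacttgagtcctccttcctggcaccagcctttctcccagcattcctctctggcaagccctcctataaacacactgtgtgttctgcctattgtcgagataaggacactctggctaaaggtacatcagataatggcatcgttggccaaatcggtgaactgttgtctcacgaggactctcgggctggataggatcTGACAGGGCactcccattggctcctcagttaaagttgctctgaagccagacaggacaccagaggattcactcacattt
Abcc2: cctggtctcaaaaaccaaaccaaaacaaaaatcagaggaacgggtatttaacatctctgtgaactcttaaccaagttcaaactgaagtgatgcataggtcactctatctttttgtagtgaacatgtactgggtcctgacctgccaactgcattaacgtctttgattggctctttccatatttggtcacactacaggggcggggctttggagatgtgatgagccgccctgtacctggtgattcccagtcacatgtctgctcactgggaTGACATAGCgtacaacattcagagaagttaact
Slc10a1: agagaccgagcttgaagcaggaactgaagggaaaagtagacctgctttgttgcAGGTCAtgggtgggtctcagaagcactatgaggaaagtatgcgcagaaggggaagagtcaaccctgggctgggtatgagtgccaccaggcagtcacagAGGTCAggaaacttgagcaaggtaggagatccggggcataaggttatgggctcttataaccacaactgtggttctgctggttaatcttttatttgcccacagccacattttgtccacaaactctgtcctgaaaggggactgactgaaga

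Both strands were searched. TGACNNNGC was found in the windows of Abcc2, Abcg5 and Abcg8, the last 2 being the same site, and in 12.1% of all 33469 windows of this length. AGGTCA was found in those of Abcc2, Slc10a1 and Slco1b2, and in 16.2% of all windows. TATAAA was found in those of Abcg5, Abcg8 and Slco1b2, and in 14.2% of all windows. In the shared stretch it stands at -158 to -153 from the Abcg5 start, between the 2 starts. No matches of different motifs overlapped in these 7 windows. A match describes letters only and not a working site.

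Total counts per rat were 11.4 to 27.7 M reads in the furan experiment (median 16.3) and 11.1 to 50 M in the 3-methylfuran experiment (median 14.9). The 3-methylfuran 0.075 group was the deepest, at a median of 24.2 M. Levels are given as CPM, the usual depth-scaled read count, with TMM factors, and a change was called at an edgeR adjusted p under 0.05. TMM factors were 1.021 to 1.405 at furan 2.0, against 0.894 to 0.963 in the controls. They were 1.046 to 1.226 at 3-methylfuran 1.0, against 0.919 to 0.974 in the controls. Scaling by library totals alone instead moved the median log2 fold change of all genes by 0.40 at furan 2.0 and by 0.25 at 3-methylfuran 1.0. Every rise and fall at these doses is therefore relative to that scaling. The share of calls that were rises was 51.6% at furan 2.0 and 48.5% at 3-methylfuran 1.0 with TMM, and 91.8% and 86.8% with library totals.

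With TMM, exporters were mostly higher and uptake carriers lower at the highest dose of either compound. The bile salt exporter Abcb11 stood on the side of the uptake carriers. At furan 2.0, 8 of the 9 were called, 5 higher and 3 lower, where 46.5% of all 12727 genes tested were called, 24% higher and 22.5% lower. At 3-methylfuran 1.0, 9 of 9 were called, 6 higher and 3 lower, where 43.6% of 11930 genes were called, 21.2% higher and 22.5% lower. The exporters Abcb4, Abcg5, Abcg8, Abcc3 and Abcc4 rose under both compounds, and Abcc2 rose under 3-methylfuran. Abcb11 and both uptake carriers fell under both with TMM. With library totals (edgeR), Abcb11 (-0.17, adjusted p = 0.132) and Slco1b2 (0.02, adjusted p = 0.86) were not called at 3-methylfuran 1.0. Abcc2 was then called higher at furan 2.0 (0.58, adjusted p = 0.000203). The median log2 fold change of the 9 was 0.85 at furan 2.0, beside 0.02 for all genes, and 0.79 at 3-methylfuran 1.0, beside 0. These were bulk tissue samples, in which fewer cells of a type and less RNA per cell cannot be told apart. Overlap between groups is described below for the carriers alone. Its share over all genes was not counted, so a lack of overlap does not set a carrier apart from other genes.

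**Figure D1:**
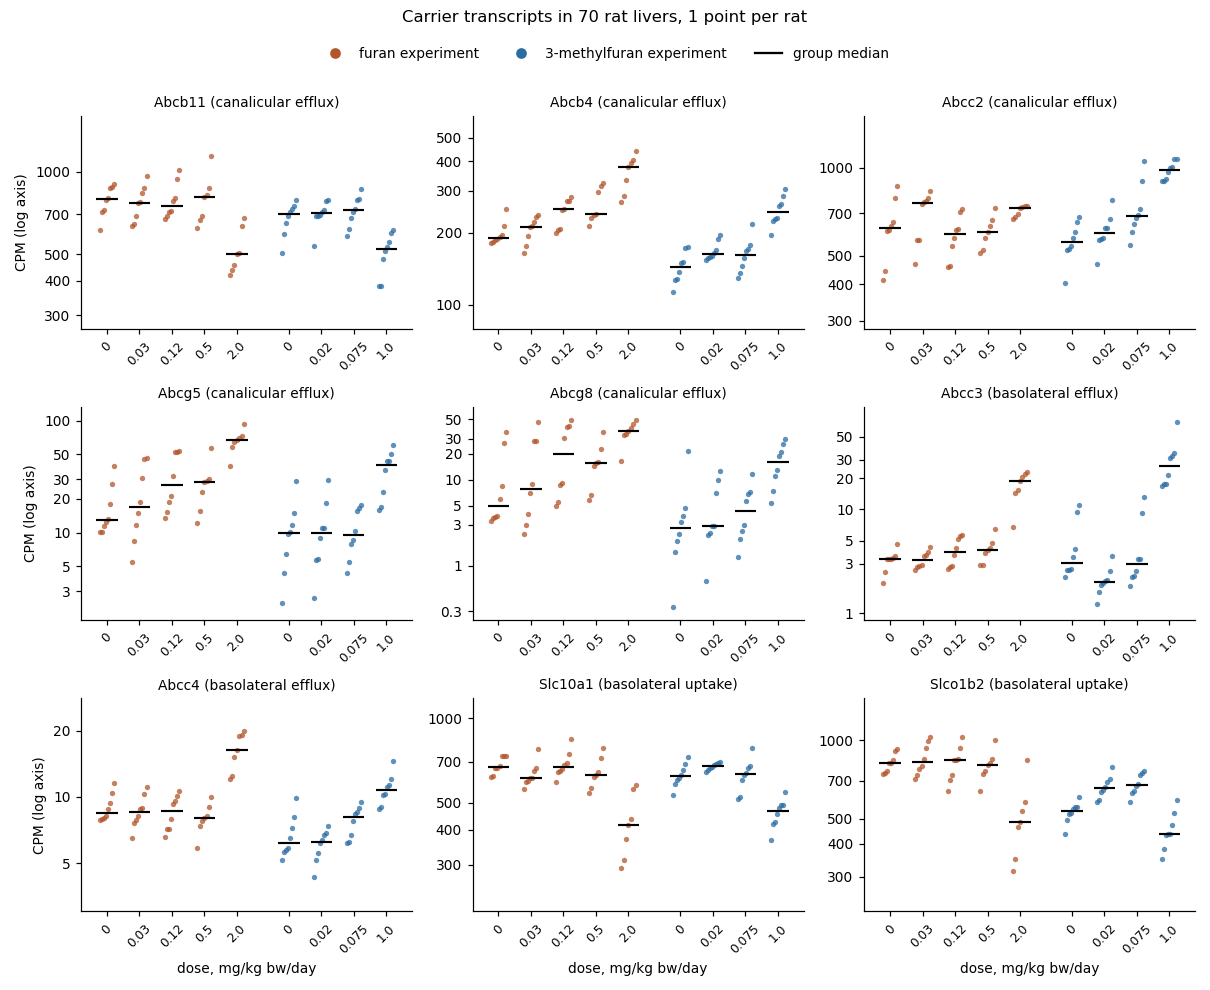
CPM (log axis, not starting at 0) of the 9 carriers in each rat against dose in mg/kg bw/day, with furan in brown at the left and 3-methylfuran in blue at the right of each panel, controls at dose 0 and a line at each group's median. The highest dose stands clear of the controls under both compounds for Abcb4 and Abcc3 (Abcc3 at a median of 18.8 CPM at furan 2.0 and 26.2 CPM at 3-methylfuran 1.0), at furan 2.0 alone for Abcc4 and Slc10a1, and at 3-methylfuran 1.0 alone for Abcc2. In the other panels, and at all lower doses, the groups overlap the controls. The share of all genes that stand clear in this way was not counted.

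Abcb11, which encodes the exporter that drives bile salt secretion, had 419 to 680 CPM (median 503) in furan 2.0 rats, against 611 to 899 CPM (median 795) in controls. Of the 7 furan 2.0 rats, 5 lay below the lowest control and none above the control mean. It fell by 0.60 ± 0.12 on the log2 scale (SE, edgeR adjusted p = 9.4e-05). In 3-methylfuran 1.0 rats it had 382 to 615 CPM (median 524), against 505 to 787 CPM (median 700) in controls, with 3 of 8 rats below the lowest control. The fall there was 0.42 ± 0.10 (adjusted p = 8.22e-04). Scaled by library totals it was smaller for furan (-0.23, adjusted p = 0.0403) and not called for 3-methylfuran (-0.17, adjusted p = 0.132).

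Abcb4, the phospholipid floppase gene, moved the other way. It had 268 to 442 CPM (median 378) in furan 2.0 rats, against 182 to 251 CPM (median 190) in controls. It had 196 to 306 CPM (median 245) in 3-methylfuran 1.0 rats, against 113 to 175 CPM (median 143) in controls. Every rat at the highest dose of either compound lay above the highest control. The log2 fold changes were 0.85 ± 0.11 (adjusted p = 4.44e-08) for furan and 0.79 ± 0.10 (adjusted p = 4.77e-08) for 3-methylfuran. Abcb4 was also the 1 carrier called at furan 0.5, where 3.16% of all genes were called. It had 213 to 323 CPM (median 239) there, with 7 of 7 rats above the control mean but 3 above the highest control (0.42 ± 0.11, adjusted p = 0.0217). That call was lost without either of the furan 0.5 rats MD063 and MD071 (adjusted p up to 0.0662). Its group means were ordered by furan dose, which no other carrier but Abcc3 showed: controls, 0.03, 0.12, 0.5 and 2.0 mg/kg bw/day stood at 199 ± 23.2, 206 ± 26.3, 243 ± 33.3, 265 ± 44.8 and 358 ± 64.0 CPM (SD). Every pair of neighbouring dose groups overlapped, furan 2.0 and 0.5 included.

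Abcc2, the canalicular exporter of conjugates, was the 1 carrier called different between the compounds at their highest doses with TMM (edgeR), a call lost with library totals. In furan 2.0 rats it had 667 to 742 CPM (median 729), inside the control range of 415 to 869 CPM (median 621), although 7 of 7 rats lay above the control mean. Its log2 fold change was 0.18 ± 0.13 (adjusted p = 0.241). In 3-methylfuran 1.0 rats it had 901 to 1074 CPM (median 980), all above the controls at 403 to 679 CPM (median 558), and it rose by 0.80 ± 0.11 (adjusted p = 3.24e-07). Scaled by library totals the furan value was 0.58 and was called (adjusted p = 0.000203). In the 3-methylfuran series Abcc2 medians were 558, 599, 683 and 980 CPM from controls to 1.0 mg/kg bw/day. At 0.075 the change was 0.38 ± 0.11 (adjusted p = 0.0679), with 4 of 8 rats above the highest control.

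Abcg5 and Abcg8, which together form the sterol exporter, both rose and varied widely between rats. Abcg5 had 39.2 to 94.5 CPM (median 67.8) in furan 2.0 rats, against 10.2 to 39.3 CPM (median 12.9) in controls, and 16.0 to 61.2 CPM (median 40.1) in 3-methylfuran 1.0 rats, against 2.36 to 28.9 CPM (median 9.89) in controls. Abcg8 had 16.4 to 49.5 CPM (median 36.5) in furan 2.0 rats, against 3.32 to 36.1 CPM (median 4.91) in controls. It had 5.44 to 29.7 CPM (median 15.8) in 3-methylfuran 1.0 rats, against 0.337 to 21.3 CPM (median 2.77) in controls. Ranges overlapped in all 4 comparisons, since single controls reached the level of treated rats. These were MC004 and, for Abcg8, MC003 among the furan controls and MC502 among the 3-methylfuran controls. Abcg5 rose by 1.91 ± 0.40 at furan 2.0 (adjusted p = 1.87e-04) and by 1.71 ± 0.43 at 3-methylfuran 1.0 (adjusted p = 1.83e-03). Abcg8 rose by 1.67 ± 0.61 (adjusted p = 0.0235) and 1.74 ± 0.56 (adjusted p = 0.0131) at those doses. Without control MC502 the Abcg8 value at 3-methylfuran 1.0 was 2.73 (adjusted p = 0.000165), and over all single rats left out it was 1.56 to 2.73.

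The pair moved in step from rat to rat. With group means subtracted, the log2 CPM of Abcg5 and Abcg8 correlated at r = 0.95 over 38 furan-experiment rats and r = 0.96 over 32 3-methylfuran-experiment rats. Each point is 1 library, and the 2 genes of a point share its depth and scaling. The 36 pairs among the 9 carriers ranged from -0.55 to 0.95 and from -0.47 to 0.96, with medians of -0.04 and 0.02. Abcc3 and Abcc4 correlated at 0.60 and 0.66, and Abcb11 with Slc10a1 at 0.68 and 0.66. The Abcg5 to Abcg8 count ratio within a rat was 1.56 to 2.39 at furan 2.0, against 1.03 to 3.46 in controls, and 1.97 to 2.94 at 3-methylfuran 1.0, against 1.36 to 7.0 in controls.

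**Figure D2:**
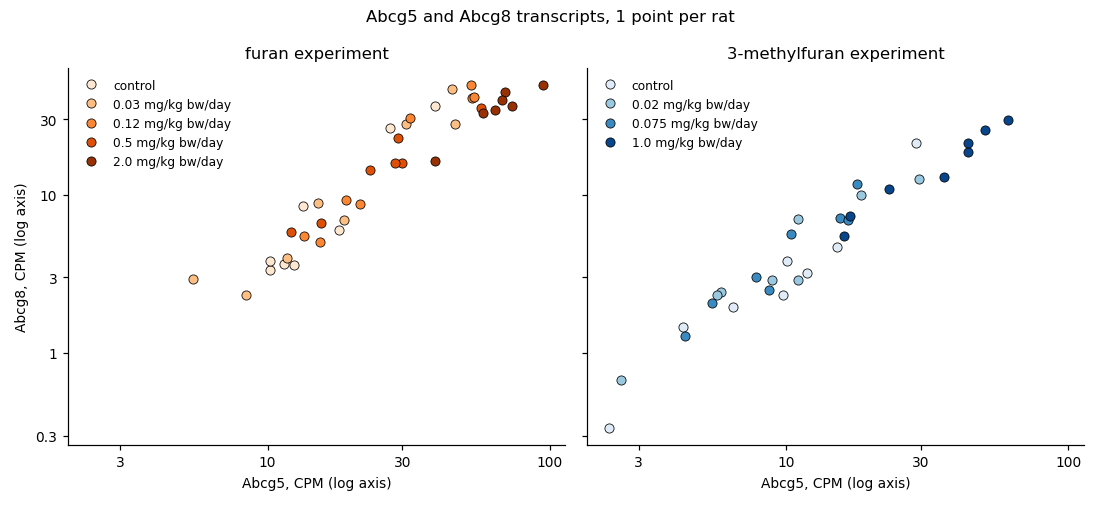
Abcg8 against Abcg5 in CPM (both axes log), 1 point per rat, with the furan experiment at the left and the 3-methylfuran experiment at the right and darker points for higher doses. Points of every group lie along 1 band (r = 0.95 and 0.96 with group means subtracted), and single controls reach the level of treated rats.

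Of the basolateral exporters, Abcc3 had the largest log2 fold change of the 9 carriers at the highest dose of either compound. Abcc3, the gene of the conjugate exporter MRP3, had 6.75 to 23.0 CPM (median 18.8) in furan 2.0 rats, against 1.95 to 4.67 CPM (median 3.34) in controls. It had 16.7 to 69.0 CPM (median 26.2) in 3-methylfuran 1.0 rats, against 2.23 to 11 CPM (median 3.06) in controls. Neither pair of groups overlapped. The rises were 2.40 ± 0.20 (adjusted p = 2.32e-11) and 2.69 ± 0.42 (adjusted p = 6.31e-06) on the log2 scale, over control counts of only 25 to 68 and 30 to 148 reads per rat. At furan 0.5 the value was 0.35 ± 0.22 (adjusted p = 0.426) and furan 2.0 stood above furan 0.5 by 2.05 ± 0.21 (adjusted p = 1.05e-08). The 3-methylfuran controls were not uniform, because MC508 and MC511 had 11 and 9.51 CPM and the other 6 had 2.23 to 4.17 CPM. With any single rat of that experiment left out, the 3-methylfuran 1.0 value was 2.39 to 3.00 and every adjusted p was 2.73e-05 or lower.

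Abcc4, the gene of MRP4, which exports bile salts with glutathione and cyclic nucleotides, followed at lower amplitude. It had 12 to 20.0 CPM (median 16.4) in furan 2.0 rats, against 7.81 to 11.6 CPM (median 8.47) in controls, with no overlap. It had 8.84 to 14.6 CPM (median 10.7) in 3-methylfuran 1.0 rats, against 5.18 to 9.89 CPM (median 6.17) in controls, with 6 of 8 rats above the highest control. The rises were 0.85 ± 0.12 (adjusted p = 5.31e-07) and 0.70 ± 0.12 (adjusted p = 1.97e-05). The control with the highest Abcc4 among 3-methylfuran controls, at 9.89 CPM, was MC511, one of the pair with high Abcc3.

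Both uptake carriers fell at the highest doses with TMM. Slc10a1, the gene of the sodium-dependent bile salt carrier NTCP, had 292 to 579 CPM (median 416) in furan 2.0 rats, all below the controls at 619 to 736 CPM (median 672). It fell by 0.69 ± 0.11 (adjusted p = 2.35e-06). In 3-methylfuran 1.0 rats it had 369 to 546 CPM (median 468), against 531 to 728 CPM (median 621) in controls, with 7 of 8 rats below the lowest control, and fell by 0.45 ± 0.07 (adjusted p = 6.79e-06). Scaled by library totals the falls were smaller and still called (-0.33 for furan and -0.20 for 3-methylfuran).

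Slco1b2, the gene of a sodium-independent organic anion carrier, had 315 to 837 CPM (median 485) in furan 2.0 rats, against 739 to 926 CPM (median 817) in controls, and fell by 0.69 ± 0.13 (adjusted p = 5.89e-05). All but 1 of the 7 treated rats lay below the lowest control. In 3-methylfuran 1.0 rats it had 349 to 588 CPM (median 436), against 436 to 605 CPM (median 534) in controls, and fell by 0.22 ± 0.08 (adjusted p = 0.0251). That call was lost without control MC512 or without treated rats ME583 or ME586 (adjusted p up to 0.0853), and with library totals the value was 0.02 (adjusted p = 0.86). Slco1b2 was the 1 carrier called at 3-methylfuran 0.075, where 1.37% of all genes were called, and it was higher there, at 580 to 759 CPM (median 673), with 7 of 8 rats above the highest control (0.36 ± 0.08, adjusted p = 0.0155). Its 3-methylfuran medians were thus 534, 653, 673 and 436 CPM from controls to 1.0 mg/kg bw/day. At 1.0 it was lower than at 0.075 by a log2 fold change of -0.59 ± 0.08 (adjusted p = 7.06e-07).

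**Figure D3:**
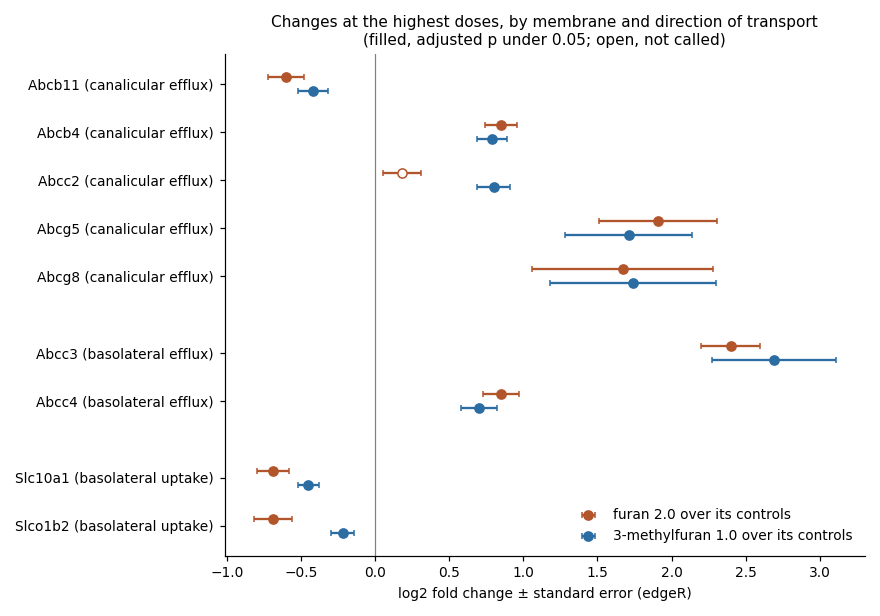
Log2 fold change with its standard error (edgeR) of each carrier at furan 2.0 (brown, upper point) and 3-methylfuran 1.0 (blue, lower point) over its own controls, grouped by membrane and direction of transport, with open points not called. Exporters other than Abcb11 lie to the right of 0 and both uptake carriers to the left, and Abcc2 at furan 2.0 is the open point (0.18 ± 0.13).

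Lower doses gave few calls. None of the 9 was called at furan 0.12, at furan 0.03 or at 3-methylfuran 0.02, where edgeR called 1.94%, 0.0707% and 0.0335% of all genes. Between furan 2.0 and furan 0.5, 7 of 9 were called, all but Abcc2 and Abcg8, where 32.2% of all genes were called. Between 3-methylfuran 1.0 and 0.075, 9 of 9 were called, where 34.9% were called. The median log2 fold change of the 9 was 0.03 at furan 0.5 and 0.14 at 3-methylfuran 0.075. Scaling by library totals put the share of rises among all calls at 93.6% for furan 2.0 over 0.5 and 88.6% for 3-methylfuran 1.0 over 0.075, against 48.6% and 48.3% with TMM.

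Ratios of counts within a rat do not depend on library scaling. Abcb4 over Abcb11 and Abcc4 over Slc10a1 set a carrier that rose over one that fell. Their separation therefore restates the changes above and is no separate support. The ratios are of transcripts and do not measure transport. Levels of different genes were not compared, since reads scale with transcript length, but the change of a ratio between groups can be read. Abcb4 over Abcb11, phospholipid over bile salt export, was 0.421 to 0.972 (median 0.751) in furan 2.0 rats, against 0.215 to 0.298 (median 0.250) in controls. It was 0.365 to 0.802 (median 0.486) in 3-methylfuran 1.0 rats, against 0.178 to 0.250 (median 0.22) in controls. Neither pair of groups overlapped. Abcc3 over Abcc2, basolateral over canalicular conjugate export, had a median of 0.0257 in furan 2.0 rats, against 0.00515 in controls, and of 0.0251 in 3-methylfuran 1.0 rats, against 0.00584 in controls. In both experiments 1 or more treated rats overlapped the controls (lowest treated 0.0101 against highest control 0.0113 for furan, and 0.0167 against 0.0209 for 3-methylfuran). Abcc4 over Slc10a1, basolateral export over uptake, was 0.0215 to 0.0645 (median 0.0440) in furan 2.0 rats, against 0.0109 to 0.0171 (median 0.0127) in controls. It was 0.0164 to 0.0344 (median 0.0229) in 3-methylfuran 1.0 rats, against 0.00711 to 0.0151 (median 0.0108) in controls. Neither pair overlapped.

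**Figure D4:**
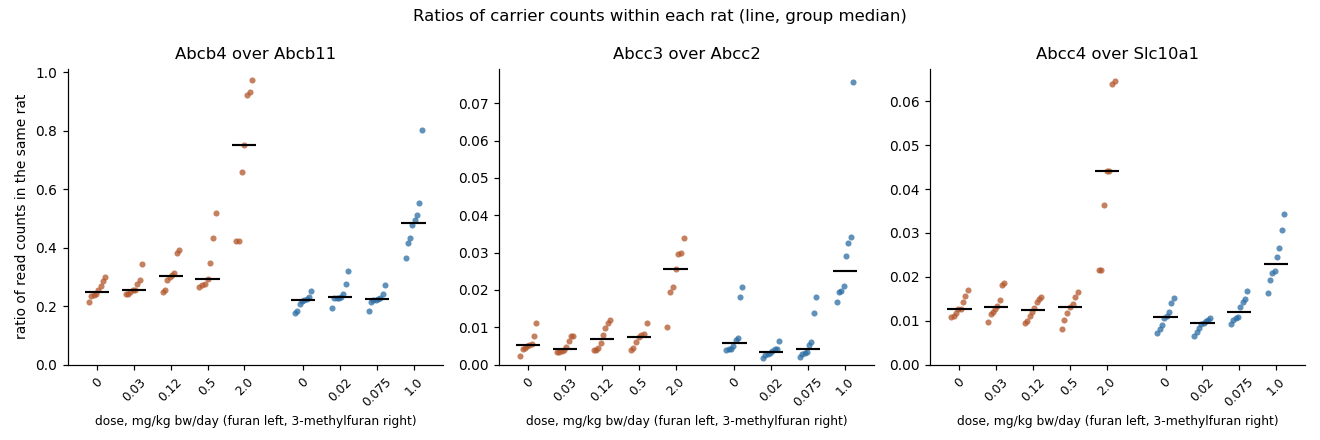
Ratio of read counts of 2 carriers in the same rat (linear axis from 0) against dose in mg/kg bw/day, 1 point per rat and a line at the group median, furan in brown at the left and 3-methylfuran in blue at the right of each panel. At the highest doses Abcb4 over Abcb11 reached medians of 0.751 and 0.486 and Abcc4 over Slc10a1 reached 0.0440 and 0.0229, clear of the controls, while Abcc3 over Abcc2 overlapped at its lowest treated rats.

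The furan 2.0 rats differed among themselves, and the same rats stood out for several carriers. ME086 had the lowest Abcc3 of its group (6.75 CPM), the lowest Abcb4 (268 CPM) and Abcc4 (12 CPM), and the highest Slco1b2 (837 CPM), and ME089 had the highest Abcb11 (680 CPM) and Slc10a1 (579 CPM). At the other end ME085 had the highest Abcb4 (442 CPM) and Abcc4 (20.0 CPM) and the lowest Slco1b2 (315 CPM). Summed hepatocyte markers, 8 genes of plasma proteins and of the urea cycle enzyme Cps1, were 175819 CPM in ME086 and 115246 CPM in ME085.

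The compounds were compared through each one's change over its own controls, although 2.0 and 1.0 mg/kg bw/day are not the same dose and the kits differed. Of the 9 carriers 1 was called between furan 2.0 and 3-methylfuran 1.0, where 7.23% of all 12941 genes were called. That was Abcc2, whose furan change was smaller by 0.62 ± 0.17 on the log2 scale (95% interval of the difference -0.97 to -0.28, adjusted p = 0.016). With library totals the difference was -0.47 and was not called (adjusted p = 0.063). The difference of Slco1b2 was -0.47 ± 0.16 (-0.79 to -0.15, adjusted p = 0.0561) and that of Slc10a1 was -0.24 ± 0.13 (-0.51 to 0.02). For Abcb4 (0.04, interval -0.25 to 0.34), Abcc4 (0.14, -0.21 to 0.50) and Abcb11 (-0.19, -0.51 to 0.12) the intervals include no difference and leave out one of more than 0.51. Those of Abcc3 (-0.29, -1.22 to 0.64), Abcg5 (0.19, -0.97 to 1.36) and Abcg8 (-0.07, -1.73 to 1.59) are wide. Between furan 0.5 and 3-methylfuran 1.0, 5 of 9 were called, where 21.4% of all genes were called. Abcc3 (-2.35), Abcc4 (-0.88) and Abcc2 (-0.85) were lower in the furan change, and Abcb11 (0.44) and Slc10a1 (0.36) higher. With library totals Abcb11 (0.25, adjusted p = 0.183) and Slc10a1 (0.18, adjusted p = 0.208) were not called and Abcb4 was (-0.56, adjusted p = 0.0115). The share of rises among all calls was 48.6% and 50.6% in these comparisons with TMM, and 87% and 17.4% with library totals.

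Other carriers of the hepatocyte were read from lists. All list counts below stand beside 46.5% of all genes called at furan 2.0, 24% higher and 22.5% lower. At 3-methylfuran 1.0 these shares were 43.6%, 21.2% and 22.5%. Of 10 other basolateral uptake carriers tested at furan 2.0, 10 fell (4 with library totals) with a median log2 fold change of -0.73, beside 0.02 for all genes, and of 9 tested at 3-methylfuran 1.0, 6 fell (5 with library totals) with a median of -0.65. The OATP genes Slco1a1, Slco1a4 and Slco2b1 and the prostaglandin transporter gene Slco2a1 fell by 0.98 ± 0.12, 0.81 ± 0.12, 0.97 ± 0.08 and 0.92 ± 0.09 at furan 2.0. At 3-methylfuran 1.0 they fell by 0.91 ± 0.11, 0.71 ± 0.14, 0.75 ± 0.07 and 0.65 ± 0.07. Of 7 other efflux carriers, 4 rose and 2 fell at furan 2.0 (6 and 1 with library totals), and 3 rose and 2 fell at 3-methylfuran 1.0 (4 and 1 with library totals). Abcc1, the gene of the conjugate exporter MRP1, rose by 1.65 ± 0.27 and 1.70 ± 0.24, and Abcg2, a canalicular exporter of sulfate conjugates and drugs, rose by 0.86 ± 0.18 and 1.13 ± 0.16, at furan 2.0 and 3-methylfuran 1.0. Abcc6, a hepatic exporter linked to ATP release, fell by 0.94 ± 0.09 and 0.62 ± 0.07 at those doses. Abcc5 rose at furan 2.0 (0.43 ± 0.14) and had -0.01 ± 0.12 at 3-methylfuran 1.0.

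**Figure D5:**
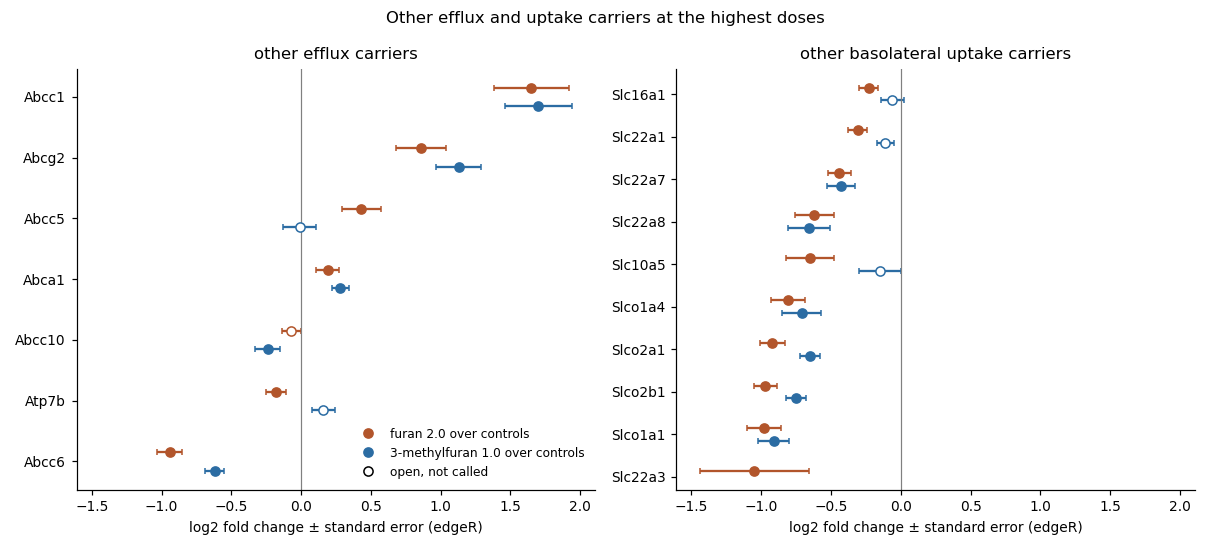
Log2 fold change with its standard error (edgeR) of other efflux carriers (left) and other basolateral uptake carriers (right) at furan 2.0 (brown, upper) and 3-methylfuran 1.0 (blue, lower) over their controls, with open points not called and Slc22a3 tested for furan only. All 10 uptake carriers lie below 0 at furan 2.0, and Abcc1 lies at 1.65 and 1.70.

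Genes that supply and regulate the carriers were counted in the same way. Of 10 genes of glucuronide and glutathione conjugation, 7 rose and 0 fell at furan 2.0 (9 and 0 with library totals), and 6 rose and 0 fell at 3-methylfuran 1.0 (8 and 0 with library totals). The glutathione transferase genes Gstp1 and Gsta3 rose by 3.46 ± 0.29 and 3.34 ± 0.47 at furan 2.0, and by 3.68 ± 0.59 and 2.06 ± 0.79 at 3-methylfuran 1.0. Ugdh, which makes UDP-glucuronate, and Gss, which makes glutathione, rose by 0.68 ± 0.09 and 0.54 ± 0.07 at furan 2.0. Of 13 genes of bile acid synthesis and amidation, 0 rose and 10 fell at furan 2.0 (1 and 6 with library totals), and 0 rose and 8 fell at 3-methylfuran 1.0 (1 and 6 with library totals). The amidation enzymes Slc27a5 and Baat fell by 0.98 ± 0.12 and 0.80 ± 0.11 at furan 2.0, and by 1.12 ± 0.13 and 0.59 ± 0.08 at 3-methylfuran 1.0. Akr1d1, the steroid reductase of the pathway, and the peroxisomal enzyme gene Hsd17b4 fell by 0.46 ± 0.08 and 0.50 ± 0.07 at furan 2.0.

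Of 14 regulators of these carriers, 0 rose and 8 fell at furan 2.0, and 1 rose and 11 fell at 3-methylfuran 1.0, but this split turned with library totals at furan 2.0 (4 and 1) and shrank at 3-methylfuran 1.0 (2 and 4). With TMM the FGF19-type receptor gene Fgfr4, the oxysterol receptor gene Nr1h3 and the NRF2 inhibitor gene Keap1 fell by 0.61 ± 0.09, 0.39 ± 0.07 and 0.31 ± 0.05 at furan 2.0. Named after their values were seen, the bile acid receptor gene Nr1h4 fell by 0.59 ± 0.11 at furan 2.0 and by 0.37 ± 0.08 at 3-methylfuran 1.0, and the NRF2 gene Nfe2l2 had -0.01 ± 0.12 at furan 2.0 and rose by 0.44 ± 0.10 at 3-methylfuran 1.0. Of 16 genes of the canalicular membrane and its trafficking, 4 rose and 7 fell at furan 2.0 (9 and 2 with library totals), and 6 rose and 3 fell at 3-methylfuran 1.0 (11 and 2 with library totals). The membrane linker gene Ezr rose by 1.51 ± 0.20 and 1.5 ± 0.12, and the tight junction gene Cldn2 fell by 1.21 ± 0.12 and 0.65 ± 0.08, at furan 2.0 and 3-methylfuran 1.0. Ceacam1, a canalicular adhesion molecule gene, fell by 0.50 ± 0.07 and 0.54 ± 0.05, and the scaffold gene Pdzk1 by 0.41 ± 0.08 at furan 2.0.

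At furan 2.0 most hepatocyte, cholangiocyte and stellate cell markers tested were called, and most macrophage and endothelial markers were not. Hepatocyte markers were abundant in every rat. With TMM, 7 of 8 were lower and 1 higher at furan 2.0 (2 lower with library totals). At 3-methylfuran 1.0, 5 of 8 were lower and 1 higher with TMM. The markers summed to 115246 to 175819 CPM at furan 2.0, against 189723 to 215376 CPM in controls. At 3-methylfuran 1.0 they summed to 178299 to 230803 CPM, against 212755 to 236016 CPM in controls. The albumin gene Alb fell by 0.55 ± 0.08 and 0.26 ± 0.06, and the antitrypsin gene Serpina1 by 0.56 ± 0.09 and 0.39 ± 0.07, while the apolipoprotein gene Apoa1 rose by 0.85 ± 0.11 and 1.13 ± 0.13, at furan 2.0 and 3-methylfuran 1.0. Transferrin (Tf) fell by 0.43 ± 0.07 and 0.16 ± 0.05. Of 14 cholangiocyte markers tested at furan 2.0, 10 rose and 1 fell, and the list summed to 55.1 to 130 CPM, against 28.2 to 122 CPM in controls. The duct and progenitor surface genes Cd24 and Epcam, the chloride channel gene Cftr and the mucin gene Muc1 rose by 2.83 ± 0.22, 1.61 ± 0.17, 4.10 ± 0.52 and 2.24 ± 0.33. Cftr, Muc1, Sox9, Spp1, Prom1 and Slc5a1, all among the 10 rises, passed the filter on low counts in the furan experiment only. Their medians there were highest at furan 2.0, so their being tested may itself rest on the rise. In furan controls the sum rests largely on Onecut1, at 6.07 to 95 CPM (median 33.7). At furan 2.0 Onecut1 was the 1 marker called lower (-1.29 ± 0.47), at 11.3 to 22.1 CPM (median 16.1). Epcam and Spp1 had medians of 21.9 and 20.8 CPM there.

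At 3-methylfuran 1.0, 3 of 8 cholangiocyte markers tested rose and 1 fell, with a sum of 45.6 to 81.8 CPM, against 20.9 to 33.6 CPM in controls. Fewer markers passed the filter here, so this count does not compare with that at furan 2.0. Epcam and Cd24 rose by 1.69 ± 0.12 and 1.81 ± 0.19. Named after their values were seen, the bile salt uptake gene Slc10a2 rose by 0.81 ± 0.17 and the keratin gene Krt7 fell by 1.36 ± 0.51. The duct keratin gene Krt19 had 0.268 to 0.975 CPM at 3-methylfuran 1.0, against 0.389 to 1.49 CPM in controls (-0.50 ± 0.32, adjusted p = 0.211). At furan 2.0 Krt19 had 0.939 to 6.10 CPM, against 0.391 to 2.05 CPM in controls. Of 8 stellate cell markers, 5 rose and 1 fell at furan 2.0, summing to 225 to 946 CPM, against 225 to 372 CPM in controls. The collagen genes Col1a1 and Col3a1 and the filament gene Des rose by 3.09 ± 0.64, 1.01 ± 0.31 and 0.82 ± 0.29. The proteoglycan gene Dcn rose too (edgeR adjusted p = 0.0071). Not every gene of the list went this way. Pdgfrb had 23.2 to 44.5 CPM (median 28.4) at furan 2.0, against 32.4 to 47.1 CPM (median 41.7) in controls. The median of Reln was 37.6 CPM, against 39.2 CPM in controls. Medians of Lrat and Acta2 were 26.5 and 5.02 CPM, against 20.6 and 2.23 CPM in controls. At 3-methylfuran 1.0 none of the 8 was called, with a sum of 141 to 206 CPM, against 158 to 181 CPM in controls. The furan 2.0 rats ME086, ME089 and ME092, whose stellate markers summed to 229, 225 and 225 CPM, had 6.75, 15.4 and 22.0 CPM of Abcc3 and 12, 12.5 and 19.2 CPM of Abcc4. The other 4 rats of that group, with stellate sums of 554 to 946 CPM, had 14.4 to 23.0 CPM of Abcc3 and 15.1 to 20.0 CPM of Abcc4. No marker of these lists was at 0 in every rat of a group, and how far a change in cell types enters the carrier values was not tested.

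Macrophage markers gave 1 rise of 8 at furan 2.0, that of Trem2 (4.85 ± 1.02), and 0 of 7 at 3-methylfuran 1.0. Trem2 passed the filter on low counts in the furan experiment only, so its being tested may itself rest on the rise. It was not tested under 3-methylfuran, and the 2 counts do not compare. Macrophage marker sums were 223 to 424 CPM at furan 2.0, against 266 to 504 CPM in controls. Endothelial markers gave 2 falls of 7 at furan 2.0, those of Clec4g (-0.41 ± 0.15) and Kdr (-0.69 ± 0.27), and 1 of 7 at 3-methylfuran 1.0. Of 9 pericentral hepatocyte genes, 0 rose and 4 fell at furan 2.0 (1 and 2 with library totals), and 3 rose and 5 fell at 3-methylfuran 1.0 (3 and 3 with library totals). At furan 2.0, 46.5% of all genes were called in either direction. The macrophage, endothelial and pericentral counts there, in either direction, do not exceed that share. With TMM all endothelial and pericentral calls at furan 2.0 were falls, which stand beside 22.5% of all genes lower. At 3-methylfuran 1.0 the pericentral counts stand beside 21.2% of all genes higher and 22.5% lower. Cyp1a2 and Oat fell by 0.98 ± 0.15 and 1.23 ± 0.24, and Slc1a2 and Glul by 0.79 ± 0.28 and 0.44 ± 0.16, at furan 2.0. Of 8 periportal genes, 0 rose and 5 fell at furan 2.0 (2 and 2 with library totals), and 1 rose and 2 fell at 3-methylfuran 1.0 (2 and 2 with library totals). Pck1 and Sds fell by 0.93 ± 0.16 and 3.67 ± 0.74, and Ass1 and Gls2 by 0.59 ± 0.15 and 0.60 ± 0.17, at furan 2.0.

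The genes whose pattern over rats was most like a carrier's were sought among 11885 genes, by the mean of Pearson's r of log2 CPM over the 38 furan-experiment rats and the 32 3-methylfuran-experiment rats. These r values include the dose groups, so that any gene that changed at the highest doses can score high. For Abcc3 they were Gstp1, the glutathione peroxidase gene Gpx2 and the aldehyde reductase gene Akr7a3 (mean r of 0.94 each). For Abcc4 they were Akr7a3 (0.87), the sorting receptor gene Sort1 (0.86) and Gpx2 (0.85). For Slc10a1 they were the unnamed gene AC114343.1 (0.94) and the P450 genes Cyp2d1 and Cyp2d2 (0.92 each), whose close sequence likeness may split reads between them. For Abcb11 they were Lmtk2, Gpld1 (0.88 each) and Ndrg2 (0.86).

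In the authors' deposited tables, 8 of the 9 carriers had an adjusted p under 0.05 at furan 2.0 and 9 at 3-methylfuran 1.0, the same carriers in the same directions as here. The deposited tables also had 1 at furan 0.5 and 2 at 3-methylfuran 0.075, and 0 at the other doses.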

How the data were processed

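The deposited count tables give whole-number read counts per gene for every sequencing run; the authors used STAR 2.7.1a, the Rnor 6.0 build and featureCounts 2.0.0, per the submitters' processing notes. Which annotation release was used, and how strand and multimapping reads were treated, is not given in the sources used here. Comparison tables were deposited as well. In them the authors, whose notes name DESeq2 1.26.0, give a signed fold change for furan, a plain ratio or fold for 3-methylfuran, and an adjusted p-value. RNA came from flash-frozen tissue, and per the labels 3-methylfuran libraries used the TruSeq Stranded mRNA kit and furan libraries its successor.

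Counts of the 2 (furan) or 3 (3-methylfuran) runs of a rat were summed, giving 70 rats from 172 runs. The title numbers of control rats recur in the column names of 1 count table each, which fixed their experiment. In R 4.3.3, genes were kept by filterByExpr with a minimum count of 10, TMM factors were computed, and edgeR 4.0.16 quasi-likelihood F tests (1 fit per experiment, 1 fit of all rats for differences between compounds) were adjusted by Benjamini-Hochberg over all genes tested. CPM use the TMM-scaled library size. The standard error is the log2 fold change over the square root of F. DESeq2 1.42.0 and limma 3.58.1 voom served as alternatives, and the scripts were tested on simulated counts. All 9 carriers are named in each comparison, and up to 4 genes per list with the smallest adjusted p at furan 2.0, of which 1 is not reported here. The members and the 13 lists (150 symbols, 14 without a match) were chosen with earlier results of these data known. P-values judge differences between groups against the spread between rats. CPM precision is limited by counting at low levels, as for Abcg8, with 4 to 321 reads in 3-methylfuran controls. Sequences come from RefSeq tables of GRCr8, a later build than the files'.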

Additional observations from a re-analysis of the deposited data

Results flagged for a closer look

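Among 81 groups of 7 or 8 rats (9 carriers in 9 groups), 5 held a rat far from the others by Dixon's test, which chance gives in about 1 in 20 groups. Abcc3 was 69.0 CPM in 3-methylfuran 1.0 rat ME587, with the next at 35.0 CPM. Abcg8 was 21.3 CPM in 3-methylfuran control MC502, with the next at 4.66 CPM. Abcg5 was 57.1 CPM in furan 0.5 rat MD069, with the next at 29.9 CPM. Abcb4 was 251 CPM in furan control MC011, with the next at 213 CPM. Abcb11 was 534 CPM in 3-methylfuran 0.02 rat MA531, with the next at 688 CPM.

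The change over controls differed between compounds in 6 tests with TMM (edgeR, all rats in 1 fit). For furan 2.0 minus 3-methylfuran 1.0 this was Abcc2 (-0.62), where 7.23% of all genes were called. For furan 0.5 minus 3-methylfuran 1.0 these were Abcc3 (-2.35), Abcc4 (-0.88), Abcc2 (-0.85), Abcb11 (0.44) and Slc10a1 (0.36), where 21.4% were called. With library totals (edgeR), Abcc2 at the highest doses was not called (adjusted p = 0.063). For furan 0.5 minus 3-methylfuran 1.0, Abcb11 (adjusted p = 0.183) and Slc10a1 (adjusted p = 0.208) were then not called, and Abcb4 was (adjusted p = 0.0115). Dose and library kit differed along with the compound and cannot be told apart from it.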

How the results depend on the processing

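The number of carriers called kept within 1.5 times its value under each alternative except these, and the causes were not tested. At 3-methylfuran 0.075 DESeq2 called 2 in place of 1, adding Abcc2. For furan 2.0 minus 3-methylfuran 1.0, library totals gave 0, and DESeq2 and limma voom each gave 2, adding Slco1b2. For furan 0.5 minus 3-methylfuran 1.0, leaving out the filter on low counts gave 3 in place of 5. With single rats left out (leave-one-out) the number was 0 to 1 at furan 0.5 and 1 to 2 at 3-methylfuran 0.075 (2 without MB545 or without MB546, the gain being Abcc2), with 8 at furan 2.0 and 8 to 9 at 3-methylfuran 1.0. The 1 reversal was Slco1b2 at 3-methylfuran 1.0, at 0.02 with library totals. It was also not called with run 1 alone or with the 2 groups alone. DESeq2 size factors within edgeR changed none of the 99 carrier calls. Of 182 list counts, 36 moved with library totals and 3 with DESeq2. No paired analysis was possible because every rat has its own number and groups share none. Control rats had as few as 4 reads of Abcg8, 25 of Abcc3, 28 of Abcg5 and 68 of Abcc4, against at least 1359 of each other carrier.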
